A study of Rattus norvegicus with 6 samples.

Results

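Amino acid transporters of the solute carrier families Slc1, Slc3, Slc6, Slc7, Slc36, Slc38 and Slc43 were followed in the tissue that grew into cellulose implants under the skin of rats. The members were all array probes whose gene symbol starts with Slc1a, Slc3a, Slc6a, Slc7a, Slc36a, Slc38a or Slc43a, without Slc7a2, which gave 52 of the 13336 genes named on the array and 54 of its 22517 probes. Slc7a6os, the gene on the opposite strand of Slc7a6, is not a transporter and was counted because its symbol meets the rule. RNA of the granulation tissue in uncoated cellulose implants was measured in 6 Sprague-Dawley rats aged 10 weeks, with 1 Illumina array per rat. The implants of rats 1, 2 and 3 were taken on day 1, at 24 hours, and those of rats 4, 6 and 7 on day 3, at 72 hours, so no rat was measured on both days. Uncoated cellulose and subcutaneous placement were shared by both groups, and an array of tissue without an implant was not analysed here. Each RNA came from a whole implant with all its cell types, so fewer cells of a type and less RNA per cell cannot be told apart.

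Amino acids cross membranes through carriers that differ in substrate, in the ion that drives them and in the membrane they sit in. Slc1 carriers take up glutamate, or exchange neutral amino acids, with sodium. Slc3 proteins are heavy chains that bring Slc7 light chains to the cell surface, where the pairs exchange one amino acid for another. Slc38 carriers move glutamine, alanine and other small neutral amino acids with sodium, most Slc36 carriers move small amino acids with protons, and Slc43 carriers let large neutral amino acids pass down their gradient. The Slc6 family holds carriers of glycine, proline, taurine and creatine as well as the reuptake carriers of neurotransmitters. In healing tissue these carriers supply protein synthesis, glutathione synthesis and the use of arginine and tryptophan by leukocytes.

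Of the 52 genes, 34 had a probe bright enough to be tested, meaning above the estimated background limit (an intensity of 101, or 6.42 on the log2 scale used below) on at least 3 of 6 arrays. From day 1 to day 3, 5 of these 34 rose, 4 fell and 25 did not pass an adjusted p of 0.05 (limma's moderated test, adjusted over all 12137 probes tested). The transporters for creatine (Slc6a8) and glycine (Slc6a9), the Slc38 members Slc38a4 and Slc38a10 and the Slc36 member Slc36a4 rose. The cystine and glutamate exchanger Slc7a11, the large neutral amino acid carrier Slc43a2, the taurine transporter Slc6a6 and the proton-coupled carrier Slc36a1 fell. Among all probes tested 12.5% rose and 9.93% fell (22.5% in all), against 14.7% and 11.8% of these genes (26.5% in all), so the shares of the transporters were near the background. Their median difference was -0.11 on the log2 scale, and that of all probes tested was -0.01. For 14 of the 34 genes (41.2%) the days did not overlap, with 6 genes higher at day 3 and 8 higher at day 1. Over all probes tested 39.7% did not overlap, 21.8% being higher at day 3 and 17.9% higher at day 1. A gene could pass the brightness filter through 1 day alone, so these counts do not speak for all 52 genes.

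The counts changed when 1 array was left out, and so did the shares over all probes. With rat 3 left out 5 genes rose and 8 fell, while of all probes 16.1% rose and 15.2% fell. Leaving out rat 1 gave 3 and 1 (9.52% and 5.88% of all probes), and leaving out rat 2 gave the same counts (6.58% and 4.24%). At day 3, dropping rat 4 gave 4 and 2 (9.62% and 7.4%), dropping rat 6 gave 1 and 1 (6.4% and 4.66%) and dropping rat 7 gave 3 and 2 (7.21% and 4.84%). Slc7a11 and Slc38a4 were the 2 genes of the 9 that passed in each of these 6 refits. By a test per probe without moderation of the variance, Slc7a11, Slc36a4 and Slc38a4 passed and the other 6 genes did not.

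**Figure D1:**
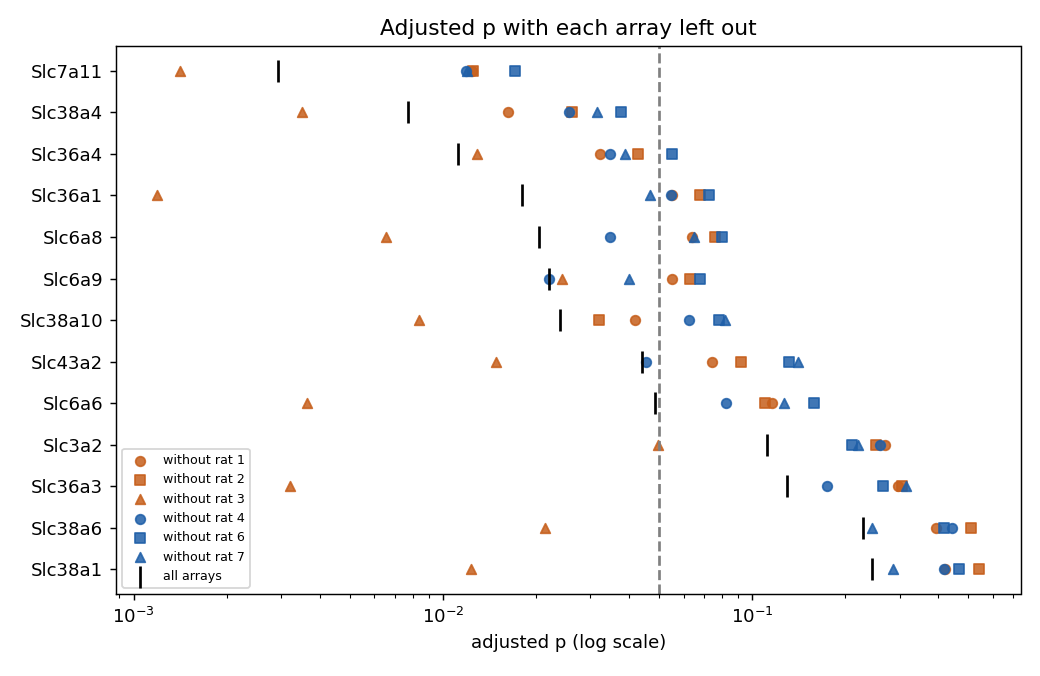
Adjusted p (log scale) of the 13 transporter genes that passed with all arrays or with 1 array left out, from limma's test over all probes. Black bars stand for all 6 arrays, symbols for each refit without 1 rat and the dashed line for 0.05; Slc7a11 and Slc38a4 lie left of the line in every refit, and the triangles of rat 3 lie left of it for all 13 genes.

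The arrays were compared with marker lists of the cell types that the tissue could hold. Of 9 fibroblast markers tested 8 rose (7 without rat 1, 2, 4, 6 or 7). Their summed intensity went from between 55869 and 66443 at day 1 to between 139731 and 156980 at day 3. Of 7 macrophage markers 4 rose (Cd163, C1qa, C1qb and C1qc) and 1 fell (Cd14). Their summed intensities overlapped between the days, with 18339 to 25333 at day 1 and 17961 to 29174 at day 3. Cd68, Csf1r and Lyz2 had no probe here. Of 7 neutrophil markers 6 fell (5 without rat 1, 2, 4 or 6, and 4 without rat 7). Their summed intensities were 15990 to 23584 at day 1 and 3893 to 7142 at day 3, while S100a9, Ltf and Ngp were too dim to be tested. Of 7 mast cell markers 6 fell (2 without rat 2, 3 without rat 7), with sums of 4702 to 8174 and then 1189 to 1853, and Kit was too dim. Fcer1a and Ms4a2, which both fell, were above background on 3 arrays at day 1 and on 1 at day 3. They met the brightness filter through day 1, the day on which they were high, so the filter favoured a fall. Their day 3 means (6.2 and 6.34) lay below the limit. Of 4 endothelial markers 3 rose (4 without rat 3, 2 without rat 6 or rat 7) and 0 fell. Of 3 epidermal markers 3 rose (2 without rat 1, 2, 6 or 7). At day 1 Krt10 and Tp63 were above background on 0 arrays and Pkp1 on 1, against 3 at day 3 for each. They passed the brightness filter only through day 3, the day on which they were high, so the filter favoured a rise. Krt14 and Krt1 were too dim to be tested. Of 4 Schwann cell and nerve markers 2 rose (1 without rat 1 or rat 2) and 0 fell. One riser, Ncam1, was above background on 0 arrays at day 1 and 3 at day 3. Of 6 platelet and erythroid markers 0 rose and 1 fell (2 without rat 3, 0 without rat 6 or rat 7). That marker, Ppbp, was above background on 3 arrays at day 1 and 0 at day 3. Ncam1 and Ppbp thus met the brightness filter only through the day on which they were high, so the filter favoured their calls. Of 8 lymphocyte markers 0 passed (3 fell without rat 3). Adipocyte and skeletal muscle markers differed between rats of the same day. Each of the 9 adipocyte markers tested was highest in rat 3, where the median log2 gap to the mean of its day 1 mates was 2.82, with a summed intensity of 162262 against 40062 in rat 1, 62001 in rat 2 and 41523 to 65261 at day 3. The 6 muscle markers summed to between 12707 and 14076 in rats 2, 3 and 6 and to between 881 and 964 in rats 1, 4 and 7. Between the days 0 of the adipocyte markers rose and 1 fell (2 and 1 without rat 3, 0 and 0 without rat 7), and 0 of the muscle markers passed. The part of these cell types in the differences of the transporters was not tested.

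**Figure D2:**
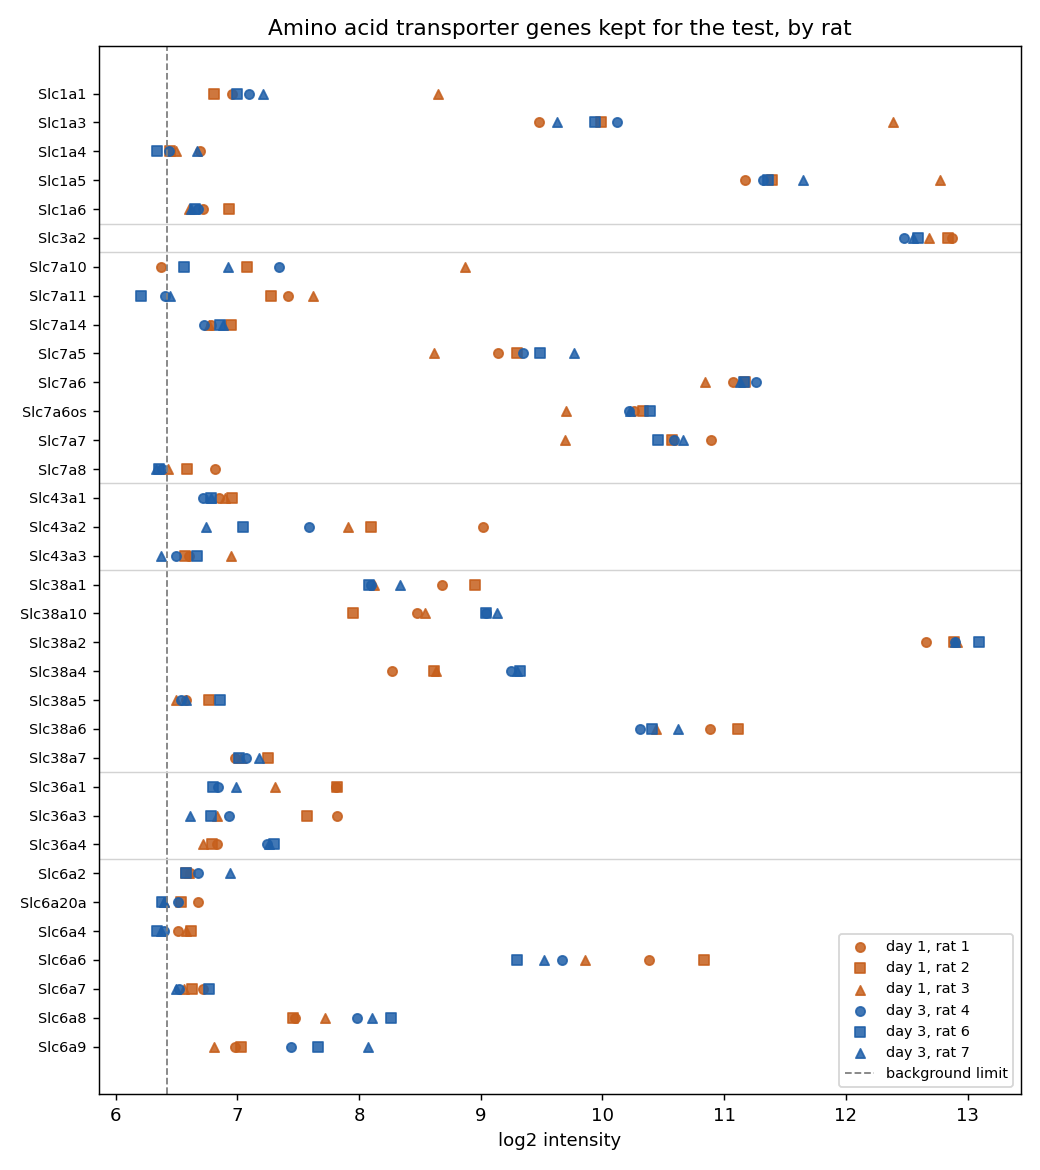
Log2 intensity (horizontal axis) of the 34 tested transporter genes in every rat, with families separated by grey lines, day 1 in orange, day 3 in blue and the background limit of 6.42 dashed. Orange and blue symbols lie apart for 14 genes, and rat 3 (orange triangles) stands far to the right of the other rats for Slc1a1, Slc1a3, Slc1a5 and Slc7a10.

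Promoter sequences from RefSeq (build GRCr8, 250 bases before to 50 after an annotated start) were available for 40 of the 52 genes, in 44 windows, and for 8 of the 9 genes that passed. Both strands were searched for 3 short motifs: TGATGNAA, the core of the amino acid response element that ATF4 and C/EBP factors bind; TGACNNNGC, the core of the antioxidant response element of NRF2; and CACGTG, the E-box of MYC and TFEB. TGATGNAA stood in 3 of the 44 windows (6.82%) against 3.98% of all 33469 windows, TGACNNNGC in 9 (20.5%) against 12.1%, and CACGTG in 7 (15.9%) against 6.42%. Of the 8 genes that passed and had a window, 2 held any of these motifs, Slc36a1 and Slc6a6, and 6 held none. The windows of these 2 genes are shown with those of Slc7a11 and Slc38a4, which passed in every refit and held none of the motifs, and of Slc38a1, a gene of the same cluster with an amino acid response element core. Capitals mark the matches. In Slc36a1 (chr10:39824785-39825084, plus strand) these are 2 E-boxes, the second overlapping an antioxidant response element core; in Slc6a6 (chr4:125752252-125752551, plus strand) an antioxidant core on the opposite strand; in Slc38a1 (chr7:129681352-129681651, minus strand) an amino acid response core. Slc7a11 lies at chr2:136668215-136668514 and Slc38a4 at chr7:130082120-130082419, both on the minus strand.
Slc36a1: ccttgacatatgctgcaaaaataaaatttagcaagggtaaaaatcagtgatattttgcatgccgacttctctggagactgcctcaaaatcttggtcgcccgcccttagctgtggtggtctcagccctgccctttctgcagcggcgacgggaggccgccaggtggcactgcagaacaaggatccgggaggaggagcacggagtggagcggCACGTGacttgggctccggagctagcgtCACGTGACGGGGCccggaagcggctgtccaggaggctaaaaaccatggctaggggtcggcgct
Slc6a6: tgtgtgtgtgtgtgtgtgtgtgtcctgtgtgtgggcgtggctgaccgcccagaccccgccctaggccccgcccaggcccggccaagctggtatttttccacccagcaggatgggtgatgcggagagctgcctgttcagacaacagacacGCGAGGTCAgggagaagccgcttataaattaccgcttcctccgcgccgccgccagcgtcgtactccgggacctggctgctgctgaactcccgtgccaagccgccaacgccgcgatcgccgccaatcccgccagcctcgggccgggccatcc
Slc7a11: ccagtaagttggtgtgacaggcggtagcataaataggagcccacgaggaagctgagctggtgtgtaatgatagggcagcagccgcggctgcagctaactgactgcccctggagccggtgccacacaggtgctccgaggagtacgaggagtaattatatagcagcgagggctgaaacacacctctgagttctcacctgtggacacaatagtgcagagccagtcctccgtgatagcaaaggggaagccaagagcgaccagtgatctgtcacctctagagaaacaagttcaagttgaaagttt
Slc38a4: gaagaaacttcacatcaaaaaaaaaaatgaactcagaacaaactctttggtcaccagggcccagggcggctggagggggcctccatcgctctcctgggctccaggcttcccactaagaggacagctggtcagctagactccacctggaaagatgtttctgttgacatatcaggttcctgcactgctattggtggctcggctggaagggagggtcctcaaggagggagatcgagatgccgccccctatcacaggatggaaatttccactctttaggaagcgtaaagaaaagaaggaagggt
Slc38a1: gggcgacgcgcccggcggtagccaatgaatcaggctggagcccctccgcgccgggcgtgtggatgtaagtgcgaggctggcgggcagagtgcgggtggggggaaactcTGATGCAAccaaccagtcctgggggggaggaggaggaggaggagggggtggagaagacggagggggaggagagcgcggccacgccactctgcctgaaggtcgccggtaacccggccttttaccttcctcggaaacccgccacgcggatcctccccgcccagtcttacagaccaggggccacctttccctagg
A match is a run of letters and not a tested site, and a missing match speaks only of these windows.

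The heterodimeric exchangers were described first, as heavy chains and then light chains. Slc3a2, the heavy chain known as CD98 that also binds integrins, had log2 levels of 12.87, 12.84 and 12.68 in rats 1, 2 and 3 and of 12.48, 12.59 and 12.55 in rats 4, 6 and 7. All day 1 values lay above all day 3 values, but the difference of the day means, 0.26 (SE 0.10), did not pass (adjusted p = 0.112, and 0.0497 without rat 3). With all arrays Slc3a2 passed by limma under cyclic loess normalisation (day 3 minus day 1 -0.35, adjusted p = 0.0299). It also passed with array weights (-0.29, adjusted p = 0.0349). In the other alternatives with all arrays it did not pass. Slc3a1, the heavy chain of the cystine carrier of kidney and gut, was above the limit on 1 array and was not tested.

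Slc7a11, the light chain that brings in cystine in exchange for glutamate and so feeds glutathione synthesis, had levels of 7.42, 7.28 and 7.62 at day 1. At day 3 it had 6.41, 6.21 and 6.45 in rats 4, 6 and 7, with 1 of these 3 arrays above background. The days did not overlap, and Slc7a11 fell by 1.09 on the log2 scale (SE 0.13, adjusted p = 0.00292). Since its day 3 mean of 6.35 lay below the limit, the size of the fall is uncertain. The difference was -1.01 with values below background raised to the limit and -0.96 with no background correction. With a background offset of 16 in place of 50 it was -1.55. Slc7a11 met the brightness filter through its day 1 arrays, the day on which it was high. A stricter filter, the 99th percentile of background (108) on all arrays, removed it from the test. Its adjusted p in the refits without 1 rat was at most 0.0171. Slc7a5, the light chain for leucine and other large neutral amino acids known as LAT1, went the other way in the same 6 arrays, from 9.14, 9.30 and 8.62 to 9.35, 9.49 and 9.77. Its days did not overlap either, yet the difference of 0.52 (SE 0.20) did not pass (adjusted p = 0.123).

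The other light chains tested did not pass. Slc7a6 and Slc7a7, exchangers of cationic for neutral amino acids, differed by 0.16 (SE 0.12) and 0.18 (SE 0.29). The values of Slc7a7, a carrier of macrophages among other cells, were 10.89, 10.57 and 9.69 at day 1 and 10.59, 10.46 and 10.66 at day 3. Its SD was 0.62 at day 1 and 0.10 at day 3, and rat 3 lay below the mean of rats 1 and 2 by more than 1 on the log2 scale. Rat 3 did so for no other gene of the 34, and for 1.19% of all probes tested. Slc7a8, the light chain LAT2, had 6.82, 6.59 and 6.43 at day 1 and was above background on 0 of 3 arrays at day 3 (adjusted p = 0.193). Slc7a14, a lysosomal member, stayed within 6.73 and 6.95 on all arrays. Slc7a6os, the overlapping gene of Slc7a6 that is no transporter, differed by 0.18 (SE 0.18). Of the cationic amino acid carriers, Slc7a1, Slc7a3 and Slc7a4 were too dim to be tested, with the probe of Slc7a1, the general arginine and lysine carrier, at intensities of 87.6 to 99.1.

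In the Slc43 family all 3 genes were tested and 1 fell. Slc43a2, a facilitative carrier of branched-chain amino acids, phenylalanine and methionine known as LAT4, had levels of 9.02, 8.10 and 7.91 at day 1 and 7.59, 7.05 and 6.74 at day 3. The lowest day 1 rat lay above the highest day 3 rat, and Slc43a2 fell by 1.22 (SE 0.34, 2.32-fold, adjusted p = 0.0442). The call was lost in 4 refits, those that dropped rat 1 (adjusted p = 0.0742), rat 2 (0.0919), rat 6 (0.132) or rat 7 (0.141). It was also lost when dim values were raised to the limit (0.0539) and when no filter was set on dim probes (0.0646). Slc43a1, the related carrier LAT3, went from 6.85, 6.96 and 6.90 to 6.72, 6.78 and 6.78, with no overlap and no call (adjusted p = 0.305). Slc43a3, which is known as a purine base carrier, differed by -0.19 (SE 0.14).

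**Figure D3:**
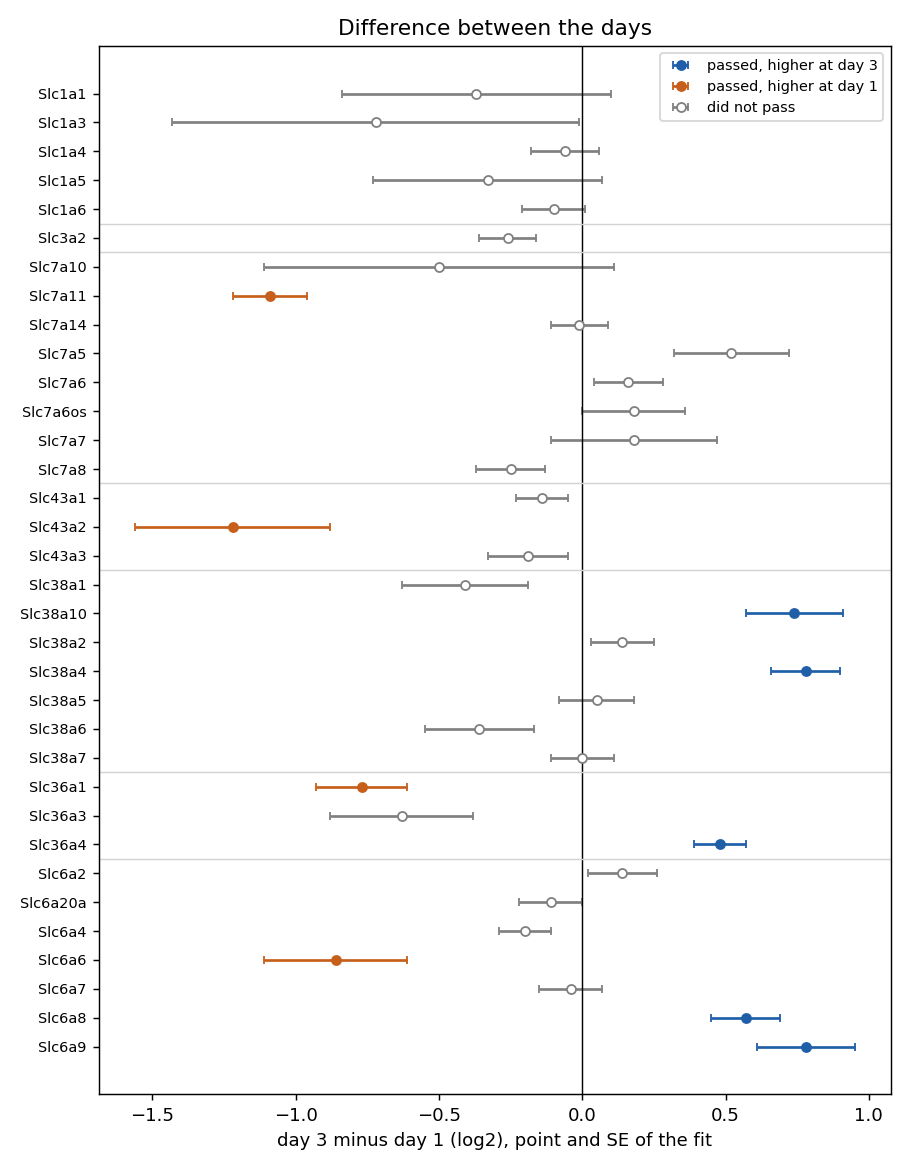
Difference between the days on the log2 scale (horizontal axis, day 3 minus day 1, points with the SE of the fit) for the 34 tested transporter genes, by family. Filled blue points are the 5 genes that rose, filled orange points the 4 that fell and open grey points the 25 that did not pass; the widest bars are those of Slc1a3 and Slc7a10.

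Among the 7 Slc38 genes tested, 2 rose and 0 fell. Slc38a4, a sodium-coupled carrier of alanine and other small neutral amino acids best known from liver and placenta, had 8.27, 8.62 and 8.63 at day 1 and 9.25, 9.32 and 9.30 at day 3. The 3 day 3 values lay within 0.07 of each other and above all of day 1, and Slc38a4 rose by 0.78 (SE 0.12, 1.72-fold, adjusted p = 0.0077). It passed in each refit, with an adjusted p of at most 0.0378, the one without rat 6. Slc38a10, a less studied family member found in intracellular membranes, rose from 8.48, 7.95 and 8.54 to 9.04, 9.04 and 9.13 (difference 0.74, SE 0.17, adjusted p = 0.0239). Its call was lost in the refits that dropped a day 3 rat: 0.0625 for rat 4, 0.0779 for rat 6 and 0.0819 for rat 7.

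In the RefSeq order of protein-coding genes Slc38a1 is followed by Slc38a2 and Slc38a2 by Slc38a4, and neither Slc38a2 nor Slc38a1 passed. Slc38a2, a carrier of glutamine and alanine that cells induce when amino acids run short, had 12.66, 12.89 and 12.91 at day 1 and 12.90, 13.09 and 12.90 at day 3, with a difference of 0.14 (SE 0.11, adjusted p = 0.451). Slc38a1, a glutamine carrier, had 8.68, 8.95 and 8.12 and then 8.10, 8.08 and 8.34. Its difference of -0.41 (SE 0.22) did not pass (adjusted p = 0.245), but it passed without rat 3 (-0.64, adjusted p = 0.0123). Slc38a6 behaved alike in these arrays, with 10.88, 11.11 and 10.44 and then 10.31, 10.41 and 10.62 (-0.36, SE 0.19), and passed without rat 3 (-0.54, adjusted p = 0.0214). Slc38a5 and Slc38a7 differed by 0.05 (SE 0.13) and 0.00 (SE 0.11). Slc38a3, Slc38a8 and Slc38a9, the last of which is a lysosomal sensor of arginine, were not tested, with intensities between 83.9 and 101.1.

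The Slc36 family held 1 gene that rose and 1 that fell. Slc36a1, the proton-coupled carrier PAT1 that moves glycine, alanine and proline out of lysosomes, had 7.81, 7.82 and 7.31 at day 1 and 6.84, 6.80 and 6.99 at day 3. The days lay apart, and Slc36a1 fell by 0.77 (SE 0.16, 1.71-fold, adjusted p = 0.018). Dropping rat 1 (0.0552), rat 2 (0.068), rat 4 (0.0548) or rat 6 (0.0727) ended the call. Slc36a4, the carrier PAT4, which has a high affinity for proline and tryptophan, had 6.83, 6.79 and 6.72 and then 7.24, 7.30 and 7.26, close values within each day. It rose by 0.48 (SE 0.09, 1.4-fold, adjusted p = 0.0112) and passed in 5 of 6 refits, the exception being the one without rat 6 (0.0549). Slc36a3, which shares a chromosome region with Slc36a1, had 7.82, 7.57 and 6.83 and then 6.93, 6.78 and 6.61, so rat 3 lay among the day 3 values. Its difference of -0.63 (SE 0.25) did not pass (adjusted p = 0.13), and without rat 3 it was -0.92 (adjusted p = 0.0032). A second probe of Slc36a3 was below background on all 6 arrays, so the level of this gene rests on 1 of its 2 probes.

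Of 14 Slc6 genes 7 were tested, of which 2 rose and 1 fell. Slc6a9, the glycine transporter GlyT1, had 6.98, 7.03 and 6.81 at day 1 and 7.44, 7.66 and 8.07 at day 3. The days lay apart, and Slc6a9 rose by 0.78 (SE 0.17, 1.72-fold, adjusted p = 0.022). Slc6a8, the creatine transporter, rose from 7.47, 7.46 and 7.72 to 7.98, 8.26 and 8.11 (difference 0.57, SE 0.12, adjusted p = 0.0205). Neither passed without rat 1 (0.0552 and 0.0639), rat 2 (0.0631 and 0.0756) or rat 6 (0.0679 and 0.08), and Slc6a8 did not pass without rat 7 (0.0651). Slc6a6, the taurine transporter, had 10.38, 10.83 and 9.86 and then 9.67, 9.30 and 9.52. It fell by 0.86 (SE 0.25, 1.82-fold) with an adjusted p of 0.0487. The lowest day 1 value (rat 3) stood next to the highest day 3 value (rat 4), and the call held in 1 of 6 refits, the one without rat 3 (adjusted p = 0.00365). In the other refits the adjusted p ran from 0.0821 (rat 4 dropped) to 0.158 (rat 6 dropped). The call was also lost with no background correction (0.0519), with dim values raised to the limit (0.0573) and with no filter on dim probes (0.0692).

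The other Slc6 genes, neurotransmitter carriers and amino acid carriers alike, lay near or below the background. Slc6a4, the serotonin transporter of neurons and platelets, had 6.51, 6.62 and 6.58 at day 1 and was above background on 0 of 3 arrays at day 3 (adjusted p = 0.153). Slc6a2, the noradrenaline transporter, lay between 6.58 and 6.94 on the 6 arrays, Slc6a7, the proline transporter of brain, between 6.50 and 6.77, and Slc6a20a, a carrier of proline-like amino acids, between 6.38 and 6.68. None of these 4 genes passed. The dopamine transporter Slc6a3, the GABA transporters Slc6a11 and Slc6a13, the glycine transporter of neurons Slc6a5, and Slc6a14, Slc6a15 and Slc6a18 were not tested.

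In the Slc1 family 5 of 6 genes were tested and 0 passed, with differences of -0.72 to -0.06. At an unadjusted p under 0.05 the count by limma was also 0, and it was 0 by the test without moderation; the lowest adjusted p of the family was 0.543. The spread within day 1 was wide for 3 of them. Slc1a3, the glutamate transporter GLAST, had 9.48, 9.99 and 12.39 at day 1 and 10.12, 9.94 and 9.63 at day 3, so that rat 3 stood above all other rats and rats 1 and 2 stood among the day 3 values. Slc1a5, the glutamine exchanger ASCT2, had 11.17, 11.39 and 12.77 and then 11.32, 11.36 and 11.65. Slc1a1, the glutamate and cysteine transporter EAAC1, had 6.96, 6.81 and 8.65 and then 7.10, 7.00 and 7.21. Without rat 3 the differences of these genes changed sign, from -0.72 to 0.16 for Slc1a3, from -0.33 to 0.17 for Slc1a5 and from -0.37 to 0.22 for Slc1a1, and none passed either way. Slc1a5 had a second probe that was below background on all 6 arrays. Slc1a4 and Slc1a6 lay between 6.34 and 6.93 on all arrays. Slc1a2, the main glutamate transporter of astrocytes, was below background on all 6 arrays.

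Slc7a10, the light chain Asc-1 for alanine and serine, which is known as a surface marker of white fat cells, followed the same rats. Its levels were 6.37, 7.08 and 8.87 in rats 1, 2 and 3 and 7.34, 6.56 and 6.92 in rats 4, 6 and 7. Adiponectin (Adipoq), made by adipocytes, had 7.44, 9.23 and 11.54 and then 8.60, 7.10 and 7.50. Both genes were highest in rat 3. In rat 3 Slc1a3 exceeded the mean of rats 1 and 2 by 2.65, Slc7a10 by 2.14, Slc1a1 by 1.76 and Slc1a5 by 1.49 on the log2 scale. These 4 were all of the 34 tested genes (11.8%) that exceeded it by over 1, against 3.98% of all probes tested, and they were picked out after their values were seen. All 9 adipocyte markers tested were also highest in rat 3, Lep was too dim to be tested, and the part of fat tissue in these levels was not tested. Rat 3 stood above both other day 1 rats for 10 of the 34 genes and below both for 19. How often it did so over all probes was not counted. Over all probes tested its median gap to the mean of rats 1 and 2 was -0.07.

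**Figure D4:**
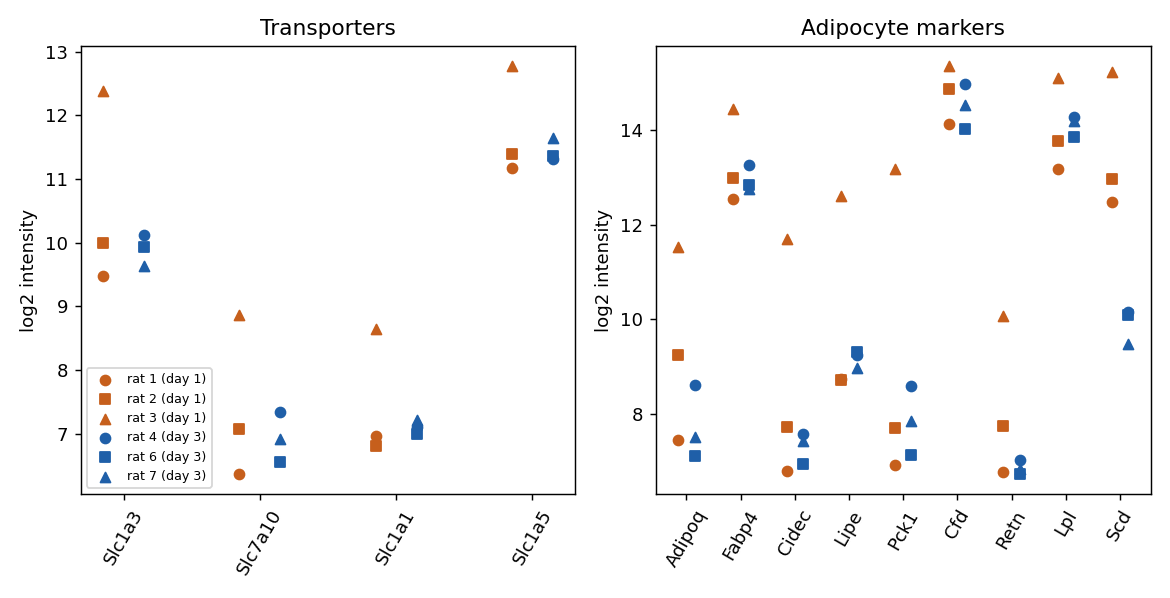
Log2 intensity (vertical axes) by rat of the 4 transporter genes that exceeded the mean of rats 1 and 2 by over 1 in rat 3 (left) and of the 9 adipocyte markers tested (right), day 1 in orange and day 3 in blue. Rat 3 (orange triangles) is the highest of the 6 rats for every gene shown.

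Of the 18 genes that were not tested, 15 were above the limit on 0 of 6 arrays and 3 on 1 or 2 arrays. Their intensities ran from 71.4 to 106.6 around a background mode of 86.1. They were Slc1a2, Slc3a1, Slc6a3, Slc6a5, Slc6a11, Slc6a13, Slc6a14, Slc6a15, Slc6a18, Slc7a1, Slc7a3, Slc7a4, Slc7a9, Slc7a13, Slc7a15, Slc38a3, Slc38a8 and Slc38a9. For these genes the arrays give only an upper bound, and no change between the days could be measured.

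The genes that make, use and sense the transported amino acids were taken from 9 lists with 94 genes tested, of which 7 rose (7.45%, against 12.5% of all probes) and 12 fell (12.8%, against 9.93%), with a median difference of -0.03. Without rat 3 these were 17 and 27, while 16.1% of all probes rose and 15.2% fell. The number that rose was 4 without rat 1 or rat 2 (9.52% and 6.58% of all probes). It was 7 without rat 4 (9.62%) and 3 without rat 6 or rat 7 (6.4% and 7.21%). The number that fell was 9, 8, 11, 10 and 9 without rats 1, 2, 4, 6 and 7. Of all probes 5.88%, 4.24%, 7.4%, 4.66% and 4.84% fell in these refits. The list of amino acid response and stress regulators had 10 genes tested, of which 1 rose and 4 fell, with a median of -0.91. Cebpb, a transcription factor of the acute response, fell by 1.07 (SE 0.12, adjusted p = 0.00248) and Atf3, a stress-induced factor, by 1.26 (SE 0.26). Atf3 did not pass without rat 1, 2 or 7 (adjusted p at most 0.0661, without rat 7). Trib3, an ATF4 target, and Ppp1r15a, a phosphatase subunit that restores translation, also fell, in each of the 6 refits. Nupr1, a stress protein, rose by 1.69 (SE 0.35) and did not pass without rat 2, 6 or 7. Atf4 itself differed by -0.28 (SE 0.11, adjusted p = 0.13), and Asns, the asparagine synthetase, had 7.53, 7.56 and 9.05 at day 1 and 7.24, 7.53 and 7.56 at day 3. Chac1, Sesn2 and Eif2ak4 were too dim to be tested.

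Of 11 genes of arginine and tryptophan use 1 rose and 4 fell (7 fell without rat 3), with a median of -0.42. Ass1, of arginine synthesis, fell by 2.64 (SE 0.26) and Nos2, which makes nitric oxide from arginine, by 2.44 (SE 0.46). Arg1, the arginase of alternatively activated macrophages, fell too, from 14.93, 14.61 and 14.33 to 13.51, 13.45 and 12.67 (adjusted p = 0.0126; 0.051 without rat 2), as did Asl. Oat, which links ornithine to proline and glutamate, rose by 0.68 (SE 0.12). Of 7 genes of serine, glycine and proline synthesis 1 rose (3 without rat 3) and 0 fell, with a median of 0.29. The riser was Aldh18a1, the entry enzyme of proline synthesis from glutamate, with 8.82, 8.59 and 8.55 at day 1 and 9.93, 10.09 and 10.15 at day 3, a 2.65-fold rise (SE 0.12 on the log2 scale, adjusted p = 0.00126). Phgdh, the first enzyme of serine synthesis, stood at 10.71 in rat 3 against 7.92 and 7.60 in rats 1 and 2.

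Of 8 enzymes of glutamine, glutamate and glutathione 0 rose and 1 fell, with a median of 0.08. Gclc, the catalytic subunit that starts glutathione synthesis, fell by 0.83 (SE 0.19, adjusted p = 0.0252) and did not pass without rat 1, 2, 6 or 7. Its regulatory partner Gclm differed by 0.02 (SE 0.15). Without rat 3, 1 gene of this list rose and 1 fell. Of 15 aminoacyl-tRNA synthetases, which load tRNAs with amino acids, 2 rose and 0 fell, with a median of 0.28. They were Gars1, for glycine, by 1.15 (SE 0.16, adjusted p = 0.00457), and Tars1, for threonine, by 0.61 (SE 0.14; 0.0782 without rat 6). The number that rose was 5 without rat 3 and 1 without rat 1, 6 or 7.

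Lysosomal amino acid sensing and mTORC1 had 17 genes tested, of which 1 rose and 0 fell, with a median of 0.12 (-0.08 without rat 3). Nprl2, a brake on mTORC1, rose by 0.36 (SE 0.09) and did not pass without rat 1, 2, 4, 6 or 7, whereas 4 genes rose and 4 fell without rat 3. Of 10 genes of branched-chain amino acid breakdown 0 rose and 1 fell, with a median of -0.39; without rat 3, 1 rose and 3 fell, with a median of -0.08. Hibch, of valine breakdown, fell by 0.94 (SE 0.17, adjusted p = 0.0112), and for 8 of the 10 rat 3 stood above both its day 1 mates. Of 9 other carriers of amino acids and peptides 0 rose and 1 fell (3 without rat 3), with a median of -0.01. Slc15a3, a lysosomal peptide and histidine carrier of leukocytes, fell by 0.95 (SE 0.15, adjusted p = 0.00788). Of 7 partners and regulators of the transporters 1 rose and 1 fell, with a median of -0.27. Itgb1, the integrin chain that binds the Slc3a2 heavy chain, rose by 0.81 (SE 0.20; 0.108 without rat 7), and Bsg, basigin, a membrane chaperone, fell by 0.44 (SE 0.10; 0.0781 without rat 2). Dropping rat 1, 2, 6 or 7 left 0 and 0 of this list, dropping rat 3 gave 1 and 4, and dropping rat 4 gave 1 and 0.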

How the data were processed

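The deposited values are linear intensities (median 104, range 60.6 to 45354), quantile-normalised between arrays by the authors as the near-identical sorted values show. The submitters' processing notes name limma, and no scanner settings were stated. A second deposited table with 12 columns of signal and detection p was not used, because its column names match no sample label.

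The intensities were corrected with normexp (offset 50), quantile-normalised and taken to log2. Background was estimated from the values (mode 86.1), and its 95th percentile, 101, was the limit: 12137 probes above it on at least 3 of 6 arrays were kept. Each was fitted with limma 3.58.1 (R 4.3.3), day as the coefficient, two-sided, adjusted by Benjamini and Hochberg at 0.05. Where a gene had several kept probes, the brightest on average stood for it. Of all probes 13787 carried 1 gene symbol, 0 several and 8730 none. The pipeline was tested on simulated data. The number of arrays limits the precision.

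Every tested transporter gene could be named, and of each list up to 2 genes per direction that changed most, or the 2 brightest. Others (Atf4, Asns, Phgdh, Asl, Gclm, Trib3, Ppp1r15a, Arg1, Ckm, Cd163, C1qb, Tp63, Fcer1a, Ms4a2) were chosen after their values were seen. Members and lists were chosen with earlier results of these data known. Alternatives covered the background correction, normalisation, filter, variance model and each array left out.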

Additional observations from a re-analysis of the deposited data

How the results depend on the processing

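No paired analysis was possible because the days share no rat numbers. The number of transporter genes that rose was 5 with all arrays and ran from 1 to 5 with 1 array left out; the number that fell was 4 and ran from 1 to 8. Over all probes the number past the test was 2728 and ran from 1314 to 3799; over the pathway lists the number that rose was 7 and ran from 3 to 17, and the number that fell was 12 and ran from 8 to 27. A test per probe without moderation gave 1058 probes, 2 transporter genes that rose and 1 that fell, and 4 and 4 genes of the pathway lists. The number of falling transporter genes was 2 with no filter on dim probes and 2 with values below background at the limit. Over all probes 2563 and 2672 passed in these settings. Array weights raised the number over all probes from 2728 to 4054. They gave 9 falling transporter genes, and 17 rising and 26 falling genes of the pathway lists. The cause was not tested. Running the alternatives over the pathway lists was chosen after seeing the data. Across the alternatives, single transporter genes that passed kept their call in 99 refits and lost it in 35. Those that did not pass gained a call in 10 and did not in 357, and 0 called differences changed sign. Refits that removed a gene as too dim were not counted. Of the genes that passed this befell Slc7a11, under the filter of the 99th percentile on all arrays. Probes near background set only a bound.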

Other observations

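Skeletal muscle markers separated the rats without regard to the day. Acta1, the actin of skeletal muscle, had log2 levels of 6.62, 12.65 and 12.34 in rats 1, 2 and 3 and of 6.45, 12.66 and 6.76 in rats 4, 6 and 7. Ckm, the muscle creatine kinase, had 5.98, 11.54 and 11.78 and then 6.04, 11.09 and 6.20.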
